A study of Mus musculus with 15 samples.

Results

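The Hox genes encode homeodomain transcription factors that lie in 4 clusters, Hoxa, Hoxb, Hoxc and Hoxd. All protein-coding genes with a mouse symbol Hoxa, Hoxb, Hoxc or Hoxd followed by a number from 1 to 13 were taken as members, which gave 39 of the 36528 genes listed: 11 in Hoxa, 10 in Hoxb, 9 in Hoxc and 9 in Hoxd. Within a cluster the genes are numbered along the chromosome, and low-numbered genes are used towards the head and high-numbered genes towards the tail of the embryo. Genes with the same number in different clusters are paralogues. In adult skin, Hox genes mark the body region that a cell comes from, and Hoxc13 is needed for hair and nails in mouse and human.

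RNA was measured in 15 libraries of basal cell carcinoma nests cut by laser capture from frozen mouse skin. All mice were K14Cre-ER; Ptch1fl/fl; p53fl/fl; Lgr5GFP, so that every group carries the same floxed Ptch1 and p53 alleles, the same Lgr5GFP allele and a Cre driven by the keratin 14 promoter of basal epithelium. The groups are 5 libraries of nests left after 28 days of vismodegib, an inhibitor of the Hedgehog transducer Smoothened, 5 of untreated Ki67- nests and 5 of untreated Ki67+ nests, Ki67 being a protein of dividing cells. The design sets residual nests against untreated ones, and untreated nests without Ki67 against those with it. The labels used here name no age, body site or animal for a nest. Libraries of a group may therefore share an animal, which would make the p-values too small, and what separates them may be technical.

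Depth was 6413055 to 10328822 counts in vismodegib libraries, 4887381 to 7158143 in Ki67- and 4929869 to 8359195 in Ki67+ libraries. Ptch1, the Hedgehog receptor and target, lay at 142 to 923 CPM, counts scaled to a common library size, in vismodegib libraries, against 2053 to 3727 CPM in Ki67- and 2446 to 3758 CPM in Ki67+ libraries. Krt14, a defining keratin of basal epithelium, lay at 2272 to 3002 CPM in vismodegib, 573 to 1046 CPM in Ki67- and 694 to 1253 CPM in Ki67+ libraries. Mki67, which encodes Ki67, lay at 489 to 847 CPM in vismodegib, 234 to 408 CPM in Ki67- and 587 to 1147 CPM in Ki67+ libraries. In bulk RNA of this kind, fewer cells of a type and less RNA per cell cannot be told apart.

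Of the 39 members, 28 passed the filter on low counts and were tested: 8 each in Hoxa, Hoxb and Hoxc and 4 in Hoxd. Hoxa11, Hoxa13, Hoxb13, Hoxc11, Hoxd11, Hoxd12 and Hoxd13 had no count in any of the 15 libraries, which allows up to 0.0284 CPM for each (3 counts of 105541861, counting error only). Hoxa10, Hoxb1, Hoxd1 and Hoxd10 had a few counts and did not pass the filter. Genes numbered 10 to 13 were thus at or near 0 in the Hoxa, Hoxb and Hoxd clusters, while Hoxc10, Hoxc12 and Hoxc13 were measured.

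Levels between genes were compared as deposited RPKM, which divides by gene length and library size. Hoxc8, a gene of trunk identity, averaged 5.43 ± 0.67 RPKM in vismodegib nests, 15.7 ± 1.17 in Ki67- nests and 13.1 ± 2.53 in Ki67+ nests (SD, n = 5 each). It was highest of the 39 by mean in all 3 groups. In Ki67- nests its lowest library (14.4 RPKM) lay above every library of every other Hox gene, whereas in vismodegib nests its range of 4.60 to 6.31 RPKM overlapped the 4.23 to 5.68 RPKM of Hoxa7. Hoxc6 followed in Ki67- nests at 7.39 ± 2.42 and in Ki67+ nests at 7.12 ± 1.48 RPKM, and Hoxc13 came next at 6.14 ± 2.59 RPKM in Ki67- and 6.94 ± 3.91 RPKM in Ki67+ nests, with ranges of these 2 genes that overlapped in both groups. In vismodegib nests Hoxc6 averaged 2.56 ± 0.43 RPKM and Hoxc13 0.37 ± 0.26 RPKM, and Hoxa7 (4.85 ± 0.54), Hoxa2 (3.77 ± 0.60) and Hoxa5 (3.08 ± 1.13 RPKM) stood next to Hoxc8. The Hoxd genes that were tested averaged between 0.064 and 0.759 RPKM over the 3 groups.

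**Figure D1:**
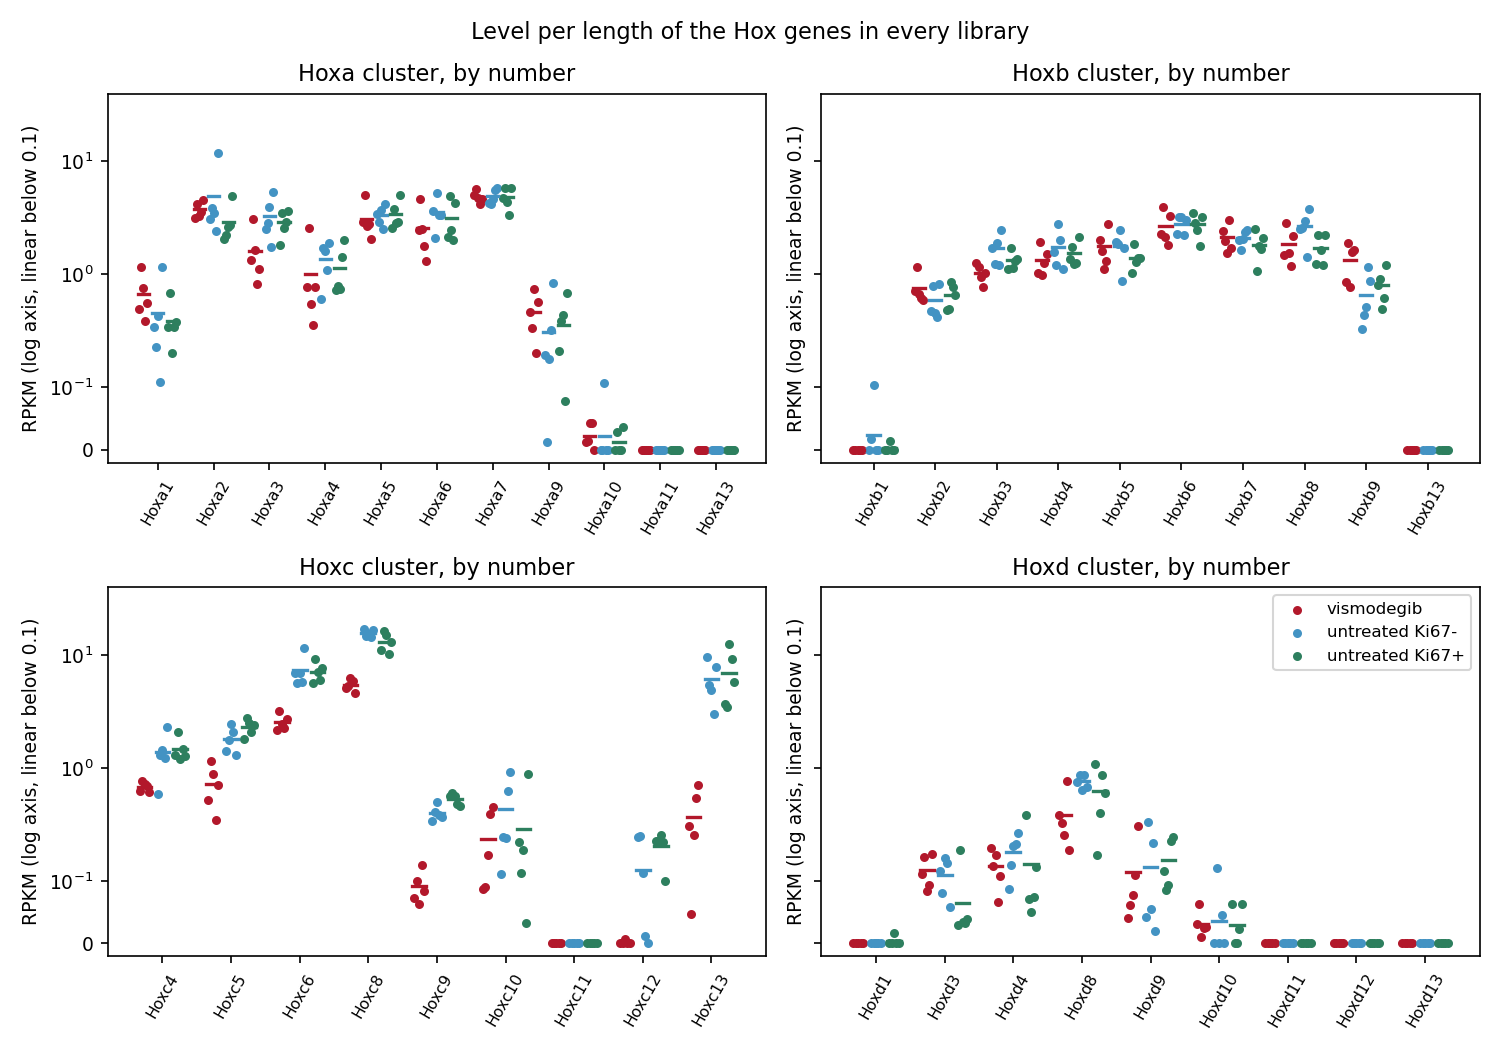
RPKM of each Hox gene (vertical, log axis that is linear below 0.1) in every library, by cluster and gene number. Points are libraries, 5 each of vismodegib, untreated Ki67- and untreated Ki67+ nests, and short lines are group means; in the Hoxc panel the vismodegib points of Hoxc5, Hoxc6, Hoxc8, Hoxc9 and Hoxc13 lie below all untreated points, while in the other panels the groups overlap.

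Of the 8 tested Hoxc genes 7 were lower in vismodegib nests than in either untreated group, and Hoxc10 was the exception. Against Ki67+ nests, 7 Hox genes were called lower and 0 higher at an edgeR adjusted p under 0.05, where 13.4% of the 17282 genes tested were called lower and 12.6% higher (26% in either direction). The 7 were Hoxc4, Hoxc5, Hoxc6, Hoxc8, Hoxc9, Hoxc12 and Hoxc13, and in all 7 every vismodegib library lay below every Ki67+ library, which held for 10.1% of all genes. Against Ki67- nests 9 Hox genes were called lower and 1 higher, where 16.5% of all genes were called lower and 15.4% higher (31.9% in either direction). The same 7 Hoxc genes were among the 9, and 5 of them had no overlap between the groups (10.2% of all genes). Both comparisons share the vismodegib libraries. In vismodegib libraries Hoxc9 reached at most 0.851 CPM and Hoxc12 at most 0.099 CPM. Hoxc13 also needed untreated libraries to pass the filter, since vismodegib library 2, at 0.474 CPM, fell short of it. Hoxc9 and Hoxc12 passed the filter through the untreated libraries, so that their direction follows from the filter. The 7 Hoxc genes called include both. The median log2 fold change of the 8 Hoxc genes was -1.56 against Ki67+ and -1.50 against Ki67- nests, with -0.02 and -0.03 over all genes.

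The low-numbered Hoxc genes, Hoxc4 to Hoxc6, and Hoxc8 take part in cervical and thoracic patterning, and all 4 fell. Hoxc8 lay at 44.1, 46.0, 54.7, 49.8 and 40.1 CPM in vismodegib libraries, against 146, 127, 129, 124 and 141 CPM in Ki67- and 94.7, 138, 130, 88.4 and 111 CPM in Ki67+ libraries. Its log2 fold change was -1.50 (SE 0.14, edgeR adjusted p = 5.65e-07) against Ki67- and -1.26 (SE 0.14, adjusted p = 4.25e-06) against Ki67+ nests. The vismodegib libraries were close to each other and all lay below the lowest untreated one. Hoxc6 lay at 83.2, 124, 94.7, 84.7 and 106 CPM in vismodegib libraries, against 267, 218, 259, 221 and 433 CPM in Ki67- and 214, 352, 271, 229 and 292 CPM in Ki67+ libraries. Its log2 fold change was -1.50 against Ki67- (SE 0.19, adjusted p = 1.56e-05) and -1.46 against Ki67+ nests (SE 0.19, adjusted p = 2.39e-05). Ki67- library 5 was high for Hoxc6 and stood apart from its group, and again no untreated library reached down to a vismodegib one.

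Hoxc5 lay at 5.24, 11.5, 8.81, 3.40 and 7.07 CPM in vismodegib libraries, against 13.9, 17.4, 23.4, 20.5 and 12.6 CPM in Ki67- and 17.7, 27.2, 24.95, 20.6 and 23.3 CPM in Ki67+ libraries. The difference for Hoxc5 came to -1.28 on the log2 scale against Ki67- (SE 0.28, adjusted p = 0.00225) and -1.65 against Ki67+ nests (SE 0.28, adjusted p = 0.000294), with no overlap. Of its exon bases, 5.4% are shared with the Hoxc10 model, whose reads there cannot be assigned with certainty. Hoxc4 lay at 10.8, 13.3, 12.3, 11.6 and 10.6 CPM in vismodegib libraries, against 10, 22.2, 23.6, 21.0 and 38.5 CPM in Ki67- and 22.3, 35.1, 20.7, 25.4 and 21.2 CPM in Ki67+ libraries. Ki67- library 1 lay below all 5 vismodegib libraries for Hoxc4, while the other untreated libraries lay above them. The log2 fold change of Hoxc4 was -0.98 against Ki67- (SE 0.27, adjusted p = 0.00967) and -1.09 against Ki67+ nests (SE 0.27, adjusted p = 0.00546).

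Of the higher-numbered Hoxc genes, Hoxc9, Hoxc12 and Hoxc13 fell and Hoxc10 was not called. Hoxc13, a regulator of hair keratin genes, lies at chr15:102921131-102928814 (GRCm38, plus strand) at the far end of the cluster from Hoxc4. It lay at 3.08, 0.474, 2.57, 5.35 and 7.20 CPM in vismodegib libraries, against 97.0, 54.3, 47.5, 30.2 and 76.1 CPM in Ki67- and 36.7, 34.4, 128, 92.0 and 57.6 CPM in Ki67+ libraries. The highest vismodegib library was thus below the lowest untreated one, and the vismodegib libraries rested on 3 to 55 counts each. The log2 fold change was -4.01 against Ki67- (SE 0.54, edgeR adjusted p = 5.42e-05) and -4.20 against Ki67+ nests (SE 0.54, adjusted p = 4.39e-05).

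Hoxc12, its neighbour, which is also active in hair follicles in mouse, had 0, 0, 1, 0 and 0 counts in vismodegib libraries, against 19, 22, 7, 1 and 0 counts in Ki67- and 18, 17, 27, 24 and 6 counts in Ki67+ libraries. Its ratio of vismodegib to Ki67- nests, from 1 count against 49, was 0.0166 (95% counting interval 0.000412 to 0.0968), and to Ki67+ nests, from 1 count against 92, it was 0.00977 (0.000245 to 0.0558). Hoxc12 was called in both comparisons (adjusted p = 0.00184 against Ki67- and 0.000588 against Ki67+ nests), but Ki67- libraries 4 and 5 were as low as the vismodegib ones. Hoxc9, a thoracic gene, lay at 0.462, 0.633, 0.396, 0.851 and 0.524 CPM in vismodegib libraries, against 2.10, 2.55, 3.03, 2.42 and 2.24 CPM in Ki67- and 3.53, 3.70, 3.56, 2.97 and 2.83 CPM in Ki67+ libraries. It was low everywhere, with 22 counts over the vismodegib libraries, 77 over the Ki67- and 116 over the Ki67+ libraries, yet the groups did not overlap. For Hoxc9 the log2 fold change was -2.07 against Ki67- (SE 0.39, adjusted p = 0.000567) and -2.50 against Ki67+ nests (SE 0.39, adjusted p = 0.00011). As given above, the direction of Hoxc9 and Hoxc12 follows from the filter, and Hoxc13 passed the filter only with untreated libraries.

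Hoxc10, which lies between Hoxc9 and Hoxc12 and is known for lumbar and hindlimb patterning, was not called. It lay at 0.617, 0.633, 1.19, 2.67 and 3.14 CPM in vismodegib libraries, against 0.807, 1.70, 1.62, 4.38 and 6.28 CPM in Ki67- and 1.54, 0.804, 1.31, 0.229 and 6.07 CPM in Ki67+ libraries. The 3 groups overlapped throughout. Its log2 fold change was -0.83 against Ki67- (SE 0.73, adjusted p = 0.411) and -0.20 against Ki67+ nests (SE 0.75, adjusted p = 0.872), and with these errors it could be told neither from no difference nor from a fall as large as that of Hoxc6.

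**Figure D2:**
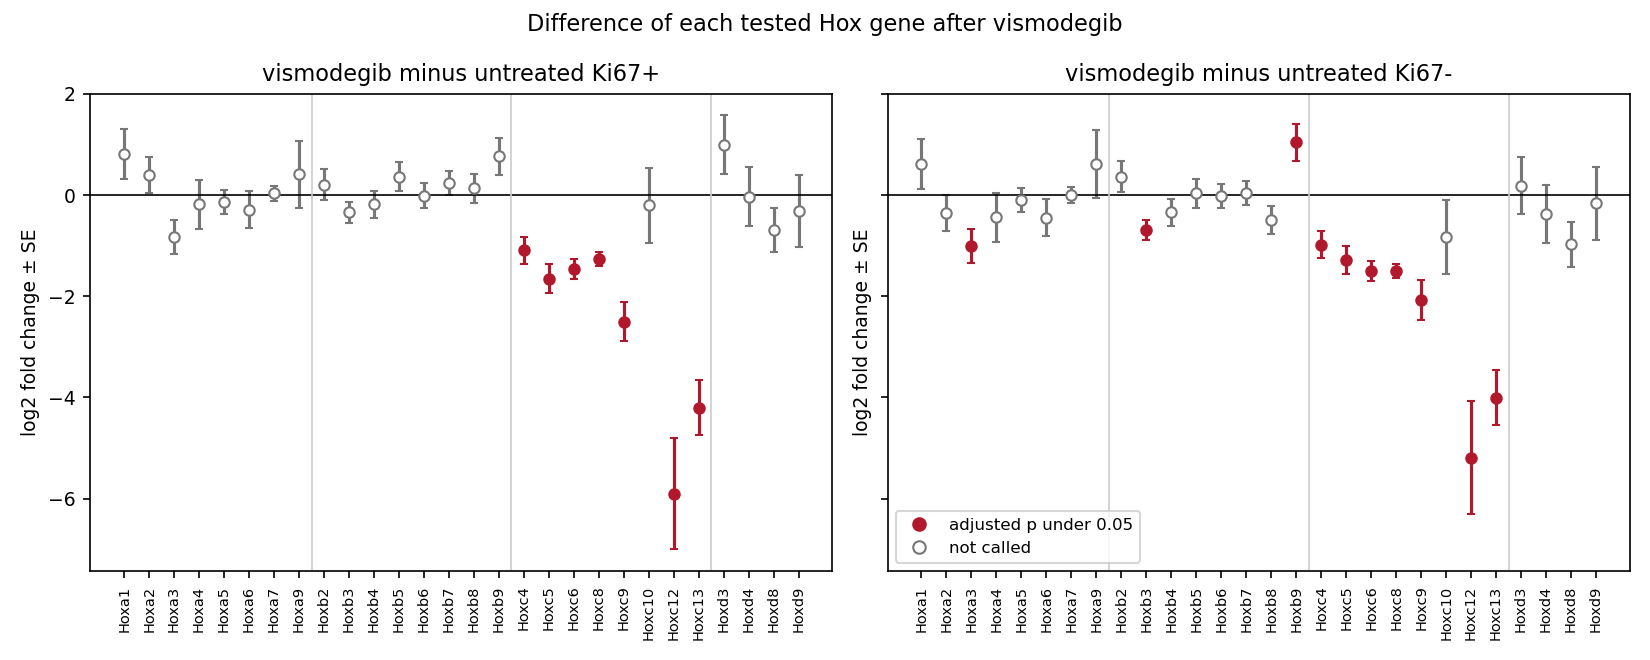
Log2 fold change (± SE) of each of the 28 tested Hox genes, vismodegib minus untreated Ki67+ nests on the left and vismodegib minus untreated Ki67- nests on the right, in order of cluster and number. Filled red points passed an adjusted p of 0.05; the filled points of Hoxc lie between -5.90 and -0.98, where the values of Hoxc12 rest on 1 vismodegib count and depend on the prior count of the fit, and of the other clusters Hoxa3, Hoxb3 and Hoxb9 are filled on the right.

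Outside Hoxc, 20 members were tested. Against Ki67+ nests 0 of them were called by edgeR, and 1, Hoxa3, had an unadjusted p under 0.05; log2 fold changes ran from -0.83 to 0.99 with a median of 0.01. DESeq2 also called 0 and limma voom called Hoxa3. Against Ki67- nests 2 were called lower and 1 higher, and the 17 others ran from -0.97 to 0.62. Hoxa7 was the steadiest of the abundant members, at 101 ± 11.9 CPM in vismodegib, 101 ± 15.03 CPM in Ki67- and 98.7 ± 20.8 CPM in Ki67+ nests. On the log2 scale it differed by 0.00 (SE 0.16) against Ki67- and 0.03 (SE 0.16) against Ki67+ nests.

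Hoxa3, a gene of pharyngeal arch development, lay at 12.6, 28.9, 15.4, 7.54 and 10.4 CPM in vismodegib libraries, against 23.4, 26.6, 35.1, 16.3 and 48.8 CPM in Ki67- and 16.9, 32.2, 23.8, 27.2 and 33.0 CPM in Ki67+ libraries. Vismodegib library 2 was high and the groups overlapped. The log2 fold change was -1.01 against Ki67- (SE 0.34, adjusted p = 0.0289) and -0.83 against Ki67+ nests (SE 0.33, adjusted p = 0.0765). The call against Ki67- nests was lost on leaving out vismodegib library 1, 3, 4 or 5 or Ki67- library 3 or 5 (adjusted p 0.0533 to 0.0948). It was also lost with only the 2 groups compared in the fit (adjusted p = 0.0562).

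Hoxb3, a hindbrain patterning gene, lay at 35.0, 32.4, 26.2, 20.8 and 28.2 CPM in vismodegib libraries, against 46.8, 33.9, 50.1, 32.9 and 66.4 CPM in Ki67- and 30.4, 46.1, 31.4, 36.1 and 36.8 CPM in Ki67+ libraries. It overlapped slightly, with a log2 fold change of -0.69 against Ki67- (SE 0.20, adjusted p = 0.0153) and -0.34 against Ki67+ nests (SE 0.20, adjusted p = 0.234). Of the exon bases of Hoxb3, 52.9% are shared with the antisense gene Hoxb3os, and of those of Hoxa3 27.1% with several genes of the cluster, so reads cannot be told apart there if strand was not used. Hoxb9, a thoracic gene, lay at 8.48, 18.8, 7.72, 15.3 and 16.2 CPM in vismodegib libraries, against 3.23, 4.25, 4.85, 11.5 and 8.38 CPM in Ki67- and 7.83, 8.84, 4.87, 6.06 and 11.7 CPM in Ki67+ libraries. Vismodegib libraries 2, 4 and 5 were above all untreated ones and the others were among them. Its log2 fold change was 1.04 against Ki67- (SE 0.37, adjusted p = 0.0387) and 0.77 against Ki67+ nests (SE 0.37, adjusted p = 0.135). The call of Hoxb9 was lost on leaving out vismodegib library 2, 4 or 5 or Ki67- library 1, 2 or 3 (adjusted p 0.073 to 0.092).

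Paralogues of the numbers 9 and 6 are set side by side here, without a test between them, and other numbers are not. Against Ki67- nests the tested paralogues of Hoxc8 and Hoxc4 all leaned lower, and none was called. Their log2 fold changes were -0.97 for Hoxd8 (edgeR unadjusted p = 0.0396, adjusted p = 0.0986), -0.49 for Hoxb8, -0.44 for Hoxa4, -0.38 for Hoxd4 and -0.34 for Hoxb4. Against Ki67+ nests Hoxb8 went the other way, at 0.13. Among genes numbered 9, Hoxc9 averaged 0.091 ± 0.029 RPKM in vismodegib, 0.400 ± 0.063 in Ki67- and 0.534 ± 0.062 in Ki67+ nests, while Hoxb9 averaged 1.35 ± 0.50 in vismodegib, 0.663 ± 0.35 in Ki67- and 0.807 ± 0.28 RPKM in Ki67+ nests. Hoxa9 and Hoxd9 were not called in either comparison. Among genes numbered 6, Hoxc6 was called lower, whereas Hoxa6 averaged 2.56 ± 1.29 RPKM in vismodegib, 3.55 ± 1.13 in Ki67- and 3.17 ± 1.35 in Ki67+ nests, and Hoxb6 averaged 2.71 ± 0.90 in vismodegib, 2.80 ± 0.49 in Ki67- and 2.77 ± 0.67 RPKM in Ki67+ nests. In vismodegib nests the levels of Hoxa6, Hoxb6 and Hoxc6 overlapped, and in untreated nests every Hoxc6 library was above every Hoxa6 and Hoxb6 library of its group.

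The summed RPKM of the Hoxc cluster was 8.81, 10.7, 10.9, 10.2 and 9.89 in vismodegib libraries, against 36.2, 29.7, 32.1, 27.4 and 41.0 in Ki67- and 24.4, 34.8, 39.3, 29.7 and 31.7 in Ki67+ libraries. The sum did not overlap between vismodegib and untreated nests. Hoxc made up 19.5% to 28.4% of all Hox RPKM in vismodegib nests, 43.9% to 53.1% in Ki67- and 42.9% to 58.6% in Ki67+ nests. The sums of Hoxa were 14.2 to 26.8 RPKM in vismodegib, 17.2 to 34.6 in Ki67- and 14.6 to 26.8 in Ki67+ nests, and those of Hoxb 9.75 to 16.6 in vismodegib, 11.7 to 16.5 in Ki67- and 10.1 to 14.4 RPKM in Ki67+ nests, with groups that overlapped in both clusters. These sums are weighted by the most abundant genes and were not tested.

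**Figure D3:**
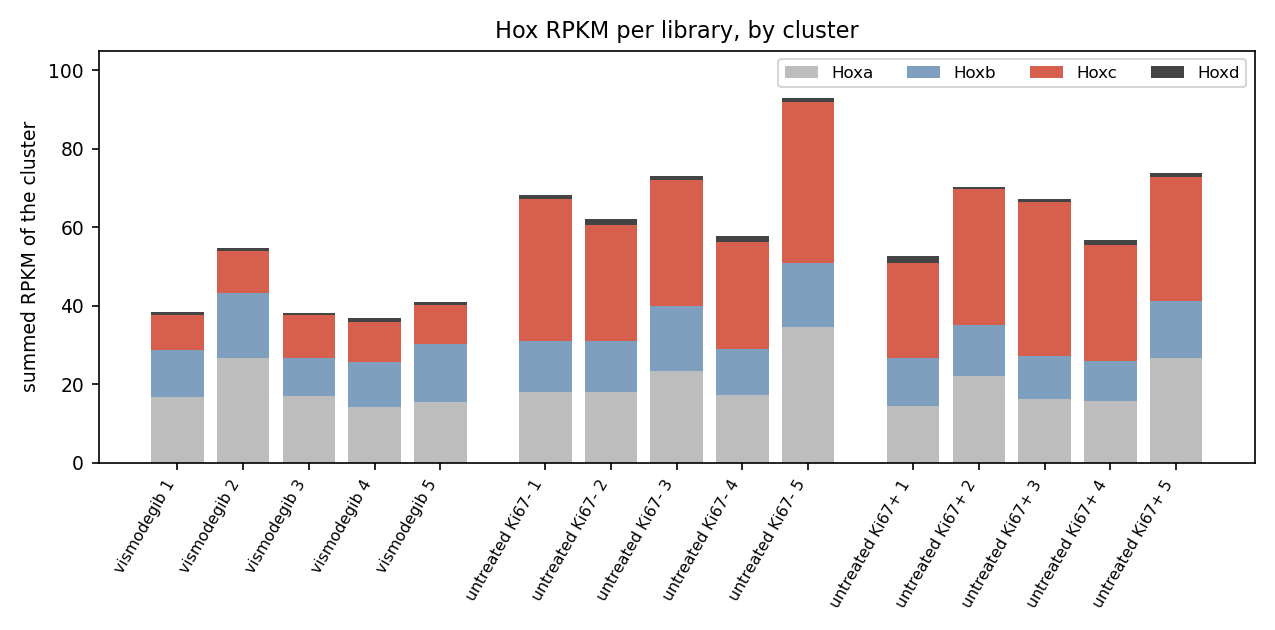
Summed RPKM of the Hox genes in each library, stacked by cluster, for 5 vismodegib, 5 untreated Ki67- and 5 untreated Ki67+ libraries. The Hoxc section is 8.81 to 10.9 RPKM in vismodegib libraries and 24.4 to 41.0 RPKM in untreated ones, while the Hoxa and Hoxb sections overlap between the groups.

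Between untreated Ki67- and Ki67+ nests, 0 of the 28 tested Hox genes were called by edgeR, DESeq2 or limma voom, and 2 had an unadjusted p under 0.05. Of all genes 0.174% were called by edgeR, all of them lower. Log2 fold changes of the members ran from -0.71 to 0.81, with a median of -0.15 for Hoxc and 0.01 over all genes, and no member was free of overlap (0.845% of all genes were separated lower and 0.33% higher). The genes with the unadjusted p were Hoxa2, at 31.4 ± 24.3 CPM in Ki67- and 18.6 ± 7.23 CPM in Ki67+ nests, and Hoxb8, at 26.8 ± 8.27 CPM in Ki67- and 17.4 ± 5.11 CPM in Ki67+ nests. Ki67- library 5, at 74.5 CPM, was high for Hoxa2 and the other 4 lay between 15.7 and 25.1 CPM.

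A non-coding gene at the Hoxc cluster was called lower, and none of the protein-coding genes beside the cluster was. Gm30528, a long non-coding gene whose span (chr15:103026807-103060555, GRCm38) overlaps that of Hoxc4, averaged 19.5 ± 4.27 CPM in vismodegib nests, 53.7 ± 11.2 CPM in Ki67- and 49.3 ± 12.6 CPM in Ki67+ nests. Every vismodegib library was below every untreated one, and the log2 fold change was -1.46 (SE 0.21, adjusted p = 3.84e-05) against Ki67- and -1.33 (SE 0.20, adjusted p = 0.000103) against Ki67+ nests. Gm30528 was the only gene called of 7 tested among 32 non-coding genes annotated in the 4 clusters. That is 1 of 7, where 16.5% of all genes were called lower against Ki67- and 13.4% against Ki67+ nests, so the share is near that of all genes. Gm30528 was singled out after its values were seen, and its overlap with Hoxc4 is one of spans; shared exons of the pair were not examined. Hotair, a non-coding gene between Hoxc11 and Hoxc12, had 8 counts over all libraries.

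Of the 4 protein-coding genes beside Hoxc, Atp5g2, Calcoco1 and Cbx5 were not called in any comparison. Smug1, which encodes a uracil-DNA glycosylase, averaged 33.0 ± 4.01 CPM in vismodegib, 20.1 ± 5.42 CPM in Ki67- and 23.6 ± 2.67 CPM in Ki67+ nests, a log2 fold change of 0.72 (SE 0.19, adjusted p = 0.00856) against Ki67- and 0.48 (SE 0.19, adjusted p = 0.0728) against Ki67+ nests. The call of Smug1 was lost with the mean level of fibroblast markers as a covariate (adjusted p = 0.0555). Beside Hoxa, Skap2, a cytoplasmic adaptor, was higher at 74.8 ± 2.98 CPM in vismodegib, 35.0 ± 9.70 CPM in Ki67- and 41.9 ± 7.12 CPM in Ki67+ nests (adjusted p = 0.000121 against Ki67- and 0.00138 against Ki67+ nests). Hibadh, beside Hoxa too, was called higher against Ki67- nests (adjusted p = 0.0144) and not against Ki67+ nests (adjusted p = 0.0686). Hnrnpa3, beside Hoxd, had a log2 fold change of -0.40 against Ki67- nests at the edge of the threshold. Its call was lost in 18 of 24 alternatives (adjusted p up to 0.333). Of the 11 genes tested beside the 4 clusters, 3 were called higher and 1 lower against Ki67- nests, where 15.4% and 16.5% of all genes were. Against Ki67+ nests 1 was called higher and 0 lower, where 12.6% and 13.4% of all genes were.

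**Figure D4:**
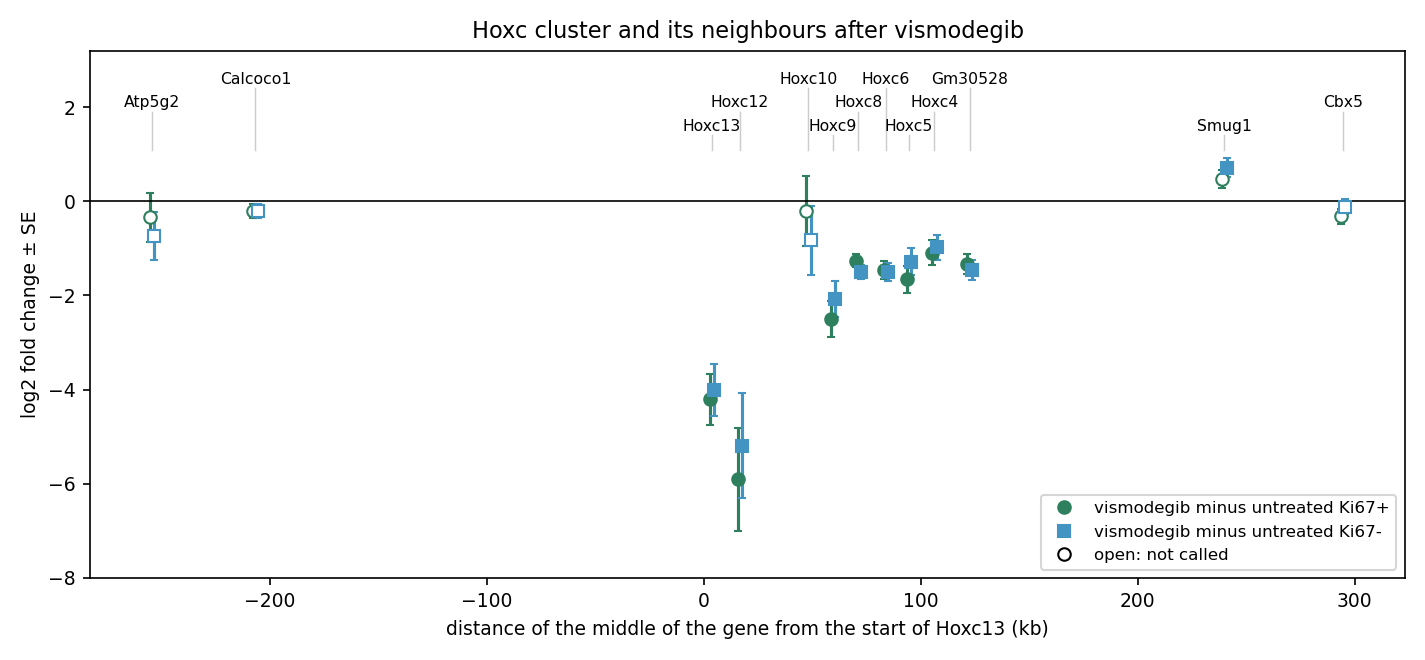
Log2 fold change (± SE) of the tested genes in and around the Hoxc cluster against their distance in kb from the start of Hoxc13. Circles are vismodegib minus untreated Ki67+ and squares vismodegib minus untreated Ki67- nests, filled where called; Hoxc genes other than Hoxc10, and Gm30528, are filled below 0, and of the flanking genes Smug1 is filled above 0 against Ki67- nests.

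Of the Hox genes, 22 had promoter entries in the RefSeq table (24 windows of 300 bases, 250 before and 50 after the start, build GRCm38.p6). Of the 7 Hoxc genes that fell, Hoxc4 had an entry. It is shown beside its paralogue Hoxb4, which was not called (log2 fold change -0.18 against Ki67+ and -0.34 against Ki67-). The Hoxc4 window, chr15:103034145-103034444 on the plus strand, lies inside the span of the gene, which begins upstream at 103018097, and inside that of Gm30528. The Hoxb4 window is chr11:96318017-96318316 on the plus strand. Capitals mark CpG dinucleotides, the sites of DNA methylation:
Hoxc4: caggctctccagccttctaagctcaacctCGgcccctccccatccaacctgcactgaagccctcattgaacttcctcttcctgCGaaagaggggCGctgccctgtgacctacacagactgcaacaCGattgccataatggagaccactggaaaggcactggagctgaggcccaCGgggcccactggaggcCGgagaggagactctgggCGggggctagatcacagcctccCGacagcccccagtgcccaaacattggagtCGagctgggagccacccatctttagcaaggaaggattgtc
Hoxb4: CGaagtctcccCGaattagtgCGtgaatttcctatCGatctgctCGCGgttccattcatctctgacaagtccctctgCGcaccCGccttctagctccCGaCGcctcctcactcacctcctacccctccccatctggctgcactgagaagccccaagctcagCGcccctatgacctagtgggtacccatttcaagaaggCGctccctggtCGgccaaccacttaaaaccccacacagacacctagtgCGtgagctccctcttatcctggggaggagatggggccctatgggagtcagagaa
Hoxc4 had 9 CpGs and Hoxb4 14, against a median of 7 over 32851 promoters and 14.5 over the 24 Hox windows. The GLI motif GACCACCCA, the letters bound by the Hedgehog transcription factors, was looked for on both strands and was in 0 of the 24 Hox windows and in 0.253% of all promoters. Neither Hoxc4 nor Hoxb4 held TGATTGAT, a PBX-HOX motif (0.746% of all promoters), TATAAA (13.6%) or TAATTA (5.29%).

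The clusters also hold microRNAs, which repress messages that pair with their seed, bases 2 to 8. miR-196a is encoded in Hoxb and between Hoxc9 and Hoxc10, and miR-196b in Hoxa; both share a seed, capitals in the RefSeq sequences. Mature microRNAs are not measured in these libraries. For the Hoxc gene that fell and has a match, Hoxc8, and for Hoxa7, which has the most matches, the site with the most pairing is printed with the seed match in capitals (GENCODE transcripts, GRCm38):
mmu-miR-196a-5p: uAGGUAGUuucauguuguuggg
mmu-miR-196b-5p: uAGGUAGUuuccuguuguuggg
Hoxc8 site, chr15:102992976-102992997, plus strand: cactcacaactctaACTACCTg
Hoxa7 site, chr6:52215210-52215231, minus strand: actactagccctaaACTACCTa
A seed match lay in the longest annotated 3′ UTR of 9 of the 39 Hox genes (23.1%), against 1283 of 21028 genes (6.1%). Hoxc8 held 2 matches and Hoxa7 4, and Hoxc8 was called lower where Hoxa7 was not. The other 6 Hoxc genes that fell held none.

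Hox proteins bind DNA with TALE homeodomain partners, and their clusters are kept silent by Polycomb and active by Trithorax complexes. Pknox2, a TALE partner, rose in both comparisons. It averaged 24.4 ± 9.76 CPM in vismodegib, 7.43 ± 6.04 CPM in Ki67- and 5.37 ± 1.49 CPM in Ki67+ nests (adjusted p = 0.00771 against Ki67- and 0.00182 against Ki67+). Of 20 Polycomb genes 1 rose and 4 fell against Ki67- nests, where 15.4% of all genes were called higher and 16.5% lower, and 0 rose and 2 fell against Ki67+ nests, where 12.6% were called higher and 13.4% lower. The shares that fell were near those of all genes. Cbx6, a chromodomain subunit, was at 13.7 ± 6.10 CPM in vismodegib, 51.4 ± 16.6 CPM in Ki67- and 47.3 ± 7.16 CPM in Ki67+ nests, log2 fold changes of -1.90 against Ki67- (adjusted p = 4.17e-05) and -1.78 against Ki67+ nests (adjusted p = 8.96e-05). Mtf2, which recruits the methyltransferase complex, fell by 0.74 against Ki67- and 0.80 against Ki67+ nests on the log2 scale, and Suz12, a core subunit of that complex, rose by 0.52 against Ki67- nests, a call lost with the fibroblast covariate or without vismodegib library 4 or Ki67- library 5 (adjusted p 0.051 to 0.066). The median of the Polycomb list was -0.16 against Ki67- and -0.20 against Ki67+ nests.

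Of 12 Trithorax activators and Polycomb-opposing demethylases 1 rose and 5 fell against Ki67- nests, and 1 rose and 3 fell against Ki67+ nests, with list medians of -0.35 against Ki67- and -0.29 against Ki67+ nests. Of all genes, 15.4% were called higher and 16.5% lower against Ki67- nests (31.9% in either direction). Against Ki67+ nests 12.6% were called higher and 13.4% lower (26% in either direction). Kdm6b, a histone demethylase that removes the Polycomb mark, averaged 124 ± 31.1 CPM in vismodegib, 264 ± 64.6 CPM in Ki67- and 243 ± 17.8 CPM in Ki67+ nests, log2 fold changes of -1.09 against Ki67- and -0.97 against Ki67+ nests. Dot1l, a histone methyltransferase linked to active Hox genes, fell by 0.84 against Ki67- and 0.80 against Ki67+ nests. Dpy30, a subunit of the Trithorax-type methyltransferase complexes, rose by 1.20 against Ki67- and 0.72 against Ki67+ nests. The Dpy30 call against Ki67+ nests was lost without vismodegib library 3 or 5 or Ki67+ library 2 or 5 (adjusted p 0.0559 to 0.0648). Of 10 tested genes of retinoic acid supply and response, which set Hox expression in the embryo, 3 rose and 3 fell against Ki67- nests (all genes, 15.4% and 16.5%) and 2 rose and 2 fell against Ki67+ nests (all genes, 12.6% and 13.4%). Rara, a retinoic acid receptor, fell by 1.01 against Ki67- and 1.04 against Ki67+ nests on the log2 scale, and Aldh1a2, which makes retinoic acid, by 3.70 against Ki67- and 3.63 against Ki67+ nests. With limma voom Aldh1a2 was not called against Ki67- (adjusted p = 0.0872) or Ki67+ nests (adjusted p = 0.0612), and over all alternatives its log2 fold change ran from -4.04 to -2.26 and from -3.97 to -2.20 in these comparisons. Crabp2, a retinoic acid carrier, rose by 1.77 against Ki67- and 1.98 against Ki67+ nests. The call of Crabp2 against Ki67- nests was lost with limma voom (adjusted p = 0.119) and without vismodegib library 3 or 5 or Ki67- library 1, 3 or 5 (0.0557 to 0.0659), and that against Ki67+ nests with limma voom (0.0975). Its log2 fold change over all alternatives reached 3.43 in both comparisons.

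Hoxc13 is known to control hair keratin genes, and of 14 hair shaft genes listed 2 passed the filter and both were higher; the filter can pass a gene through the group where it is high, so the 12 others are not covered. Foxn1, a transcription factor of hair formation that lies downstream of Hoxc13 in mouse, averaged 26.7 ± 8.20 CPM in vismodegib nests, 2.82 ± 2.09 CPM in Ki67- and 3.01 ± 2.03 CPM in Ki67+ nests, log2 fold changes of 3.24 against Ki67- (adjusted p = 0.000135) and 3.11 against Ki67+ nests (adjusted p = 0.000194). Krt32, a hair cuticle keratin, averaged 17.8 ± 4.70 CPM in vismodegib, 0.174 ± 0.26 CPM in Ki67- and 0.418 ± 0.41 CPM in Ki67+ nests. Krt32 passed the filter through the vismodegib libraries, so that its direction follows from the filter. Of 10 tested homeobox and limb position genes outside the clusters, 6 fell against Ki67- and 7 against Ki67+ nests and 0 rose, where 16.5% and 13.4% of all genes were called lower. Lhx2, a hair follicle stem cell factor, averaged 70.3 ± 26.1 CPM in vismodegib, 663 ± 203 CPM in Ki67- and 613 ± 172 CPM in Ki67+ nests, log2 fold changes of -3.24 against Ki67- and -3.12 against Ki67+ nests. Lmx1b, known for dorsal limb identity, fell by 4.59 against Ki67- nests. It averaged 0.621 ± 0.75 CPM in vismodegib, against 21.6 ± 8.03 CPM in Ki67+ nests. Lmx1b passed the filter through the untreated libraries, so that its direction follows from the filter. Meox1, a mesoderm homeobox gene, fell by 3.69 and 3.10 against Ki67- and Ki67+ nests.

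Several marker lists of other cell types differed in the same comparisons. Of all genes, 16.5% were called lower and 15.4% higher against Ki67- nests, and 13.4% lower and 12.6% higher against Ki67+ nests. Of 14 fibroblast markers 7 were lower in vismodegib nests than in Ki67- nests and 6 lower than in Ki67+ nests, with summed levels of 530 to 3902 CPM in vismodegib, 3050 to 5650 CPM in Ki67- and 2068 to 6906 CPM in Ki67+ libraries, and none of these markers was at 0. With the mean log2 level of the fibroblast markers as a covariate, the 7 Hoxc genes were called in both comparisons. These include Hoxc9 and Hoxc12, whose direction follows from the filter. The log2 fold changes of Hoxc8 in that fit were -1.65 against Ki67- and -1.38 against Ki67+ nests. Part of these markers were lower in vismodegib nests, so that fit cannot separate fibroblast content from group.

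Of 7 tested dermal papilla markers 4, and of 8 pericyte and smooth muscle markers 5, were lower in both comparisons, with dermal papilla sums of 50.4 to 317 CPM in vismodegib, 480 to 655 CPM in Ki67- and 337 to 688 CPM in Ki67+ nests. The pericyte and smooth muscle sums were 147 to 264 CPM in vismodegib, 726 to 1113 CPM in Ki67- and 657 to 1005 CPM in Ki67+ nests. Of 6 melanocyte markers 3 were lower and 1 higher than in Ki67- nests, and 4 were lower than in Ki67+ nests. Shares over all genes are those given with the fibroblast markers. Of 7 basal keratinocyte markers 5 were higher and 0 lower in both comparisons. Of 6 T cell markers 4 were higher than in Ki67- nests and 5 higher than in Ki67+ nests, and 0 were lower. All 7 differentiated keratinocyte markers were higher, at 3137 to 3912 CPM in vismodegib nests, 118 to 256 CPM in Ki67- and 138 to 392 CPM in Ki67+ nests, and of 7 dendritic and Langerhans markers 6 were higher than in Ki67- nests and 7 higher than in Ki67+ nests. The part of the fibroblast, dermal papilla, pericyte, melanocyte, keratinocyte, dendritic and T cell markers in the Hoxc differences was not tested.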

How the data were processed

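RNA from 15 nest libraries (5 per group, 3 groups) was analysed from the deposited tables. Per the file headers, the count of a gene is the number of reads that aligned to its model and nowhere else. The RPKM values were divided by a size factor for each library, per the file headers. GSNAP and the build GRCm38 are named in the submitters' processing notes. For versions, strand use, annotation release, run and date: not given in the sources used here. The Ki67- libraries were registered in a separate block from the vismodegib and Ki67+ libraries. Whether they were also prepared separately is not given, so a batch difference cannot be told apart from the Ki67- group. Symbols were matched for 31049 of 36528 IDs (85.0%).

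Counts were tested with edgeR 4.0.16 (R 4.3.3): TMM factors, filterByExpr (minimum count 10, minimum total 15), 1 quasi-likelihood fit over all 15 libraries with 12 residual degrees of freedom, two-sided, Benjamini-Hochberg adjustment over 17282 genes, called at an adjusted p under 0.05. Every adjusted p in the text comes from this test, except where an alternative fit or a left-out library is named. CPM values use TMM-scaled library sizes. Depth limits genes with few counts, and intervals and floors cover counting error only. Alternatives used DESeq2 1.42.0, limma 3.58.1, other scalings and filters, covariates and each library left out. No library was a duplicate: a chi-square test of gene counts between libraries of 1 group gave 14.33 to 46.8 per degree of freedom. The steps were tested on simulated data. Members called in at least 1 comparison are given by library, the others by range, and up to 3 called genes per direction are named from each other list. The members and lists were chosen with earlier results of these data known. The result of 1 cofactor gene and the count of its list are not reported here.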

Additional observations from a re-analysis of the deposited data

Results flagged for a closer look

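In 12 of 84 sets of 5 libraries (28 genes in 3 groups) 1 library stood apart from the other 4 by Dixon's criterion. Chance does this in about 1 of 20 sets of normally distributed values. The CPM values were not log-transformed and some rest on few counts, so that rate may not hold here. All values are CPM. In vismodegib nests, library 2 was high for Hoxa4 (14.4, others 1.94 to 4.32), Hoxa5 (34.6, others 14.1 to 20) and Hoxb2 (11.4, others 5.76 to 6.94). Vismodegib library 5 was high for Hoxd9 (2.36, others 0.308 to 0.851), and vismodegib library 3 held the only count of Hoxc12 (0.099). In Ki67- nests, library 5 was high for Hoxa2 (74.5, others 15.7 to 25.1) and Hoxc6 (433, others 218 to 267). In Ki67+ nests, library 5 was high for Hoxa2 (31.1, others 13.2 to 17.6) and Hoxc10 (6.07, others 0.229 to 1.54) and low for Hoxc12 (1.21, others 2.73 to 3.21). Ki67+ library 2 was high for Hoxd3 (1.93, others 0.307 to 0.405), and Ki67+ library 1 for Hoxd4 (3.53, others 0.475 to 1.21). Of the exon bases of Hoxd3, 62.8% are shared with other genes, and of those of Hoxd4 52.3%.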

How the results depend on the processing

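Over 24 alternatives, the 7 Hoxc genes stayed called lower in both vismodegib comparisons wherever they were tested. Hoxc12 fell below the filter when only the 2 groups compared were fitted. For Hoxc9 and Hoxc12 the direction follows from the filter, so repeated calls add nothing on their direction. Hoxc13 also needed untreated libraries to pass the filter. The number of Hox genes called higher against Ki67- nests (1) was 0 with only the 2 groups compared, 0 with a covariate for libraries with Xist above Ddx3y and 0 with the fibroblast covariate, and ran from 0 to 2 on leaving out a library. Xist was above Ddx3y in 5 of the 15 libraries, which points to animals of both sexes. The number called higher against Ki67+ nests (0) ran from 0 to 1, with Hoxd3 called without Ki67+ library 2. Numbers called lower stayed between 6 and 9 against Ki67+ and between 7 and 11 against Ki67- nests. Hoxa3 against Ki67+ nests was called with limma voom, either covariate or without vismodegib library 2. Hoxc10 changed sign against Ki67+ nests with limma voom (0.35) and the fibroblast covariate (0.70), ran from -0.56 to 0.78 on leaving out a library, and changed sign against Ki67- nests with the fibroblast covariate (0.15); the cause was not tested. Over all genes, 30 were called lower in Ki67- than in Ki67+ nests, against 83 lower and 5 higher with DESeq2, 15 lower with limma voom, 0 with only the 2 groups, and 0 without Ki67- library 3, 4 or 5 or Ki67+ library 4. No paired analysis was possible because the labels carry no replicate numbers. Depth limits Hoxc9, Hoxc10, Hoxc12 and the Hoxd genes.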
